A study of Mus musculus with 8 samples.

Results

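The genes described here encode the main inhibitory receptors of T cells, their ligands, the costimulatory receptor ICOS and regulators of T cell tolerance: Cd274 (PD-L1), Pdcd1lg2 (PD-L2), Pdcd1 (PD-1), Ctla4, Lag3, Havcr2 (TIM-3), Tigit, Icos, Foxp3 and Ido1. They were listed by name, and each was represented by the probe set that lists this gene symbol and no other, the one with the highest mean where a gene had several. All 10 were found, each with 1 such probe set, among 19937 genes with a probe set of their own. All 10 passed the expression limit used for testing, a mean log2 signal of 4.0 over the 8 arrays.

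The 8 tumors were raised by placing 4T1 cells, which are an established mammary carcinoma line of the mouse, into mammary tissue of BALB/c mice. In 4 tumors (preirradiated, numbered 1 to 4) the fourth mammary gland had received 1 X-ray dose of 20 Gy before the cells were placed, and in the other 4 (nonirradiated, numbered 1 to 4) it had received none. Growth lasted 18 days in both groups. The question is what irradiation of the bed changes in tumors that form there later. The labels give neither the age of the animals nor the number of mice behind the tumors, so the p-values describe the spread between these 8 samples, which may be technical. The values are log2 signals made by robust multi-array averaging (RMA) from Affymetrix Mouse Gene 1.0 ST arrays, 1 per tumor, and the number of arrays limits the precision.

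Checkpoint receptors appear on T cells after activation and dampen signalling from the T cell receptor when they meet their ligands on tumor cells, macrophages or dendritic cells. Interferon-gamma released by activated T and natural killer (NK) cells is a strong inducer of PD-L1, and also of PD-L2 and of the tryptophan-degrading enzyme IDO1 in many cells. Regulatory T cells, which depend on the transcription factor FOXP3, carry CTLA-4, ICOS and TIGIT at high levels and restrain other T cells.

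Transcripts of these genes were on average lower in preirradiated tumors for 9 of 10 genes, against 50.5% of the 34738 probe sets tested, but no single difference passed the test. The differences ran from -0.32 (Cd274) to 0.052 (Tigit) on the log2 scale, with a median of -0.11, beside a median of -0.0009 over all probe sets and -0.0038 over all single-symbol genes. With limma, 0 of the 10 genes passed a Benjamini-Hochberg adjusted p of 0.05 (lowest adjusted p = 0.856, highest 0.995), and neither did any other probe set (0.0%). None passed at an unadjusted p under 0.05 either, where 5.8% of all probe sets did (2.97% lower, 2.84% higher). The submitters' criteria for a changed gene combine that unadjusted limit with a log2 difference of 0.4 or more in either direction. They were met by 0 of the 10 genes and by 0.642% of all probe sets (0.153% lower, 0.489% higher). In no gene were the groups separated, which was so for 3.36% of all probe sets. In whole tumor RNA, fewer cells of a type and less RNA per cell cannot be told apart.

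**Figure D1:**
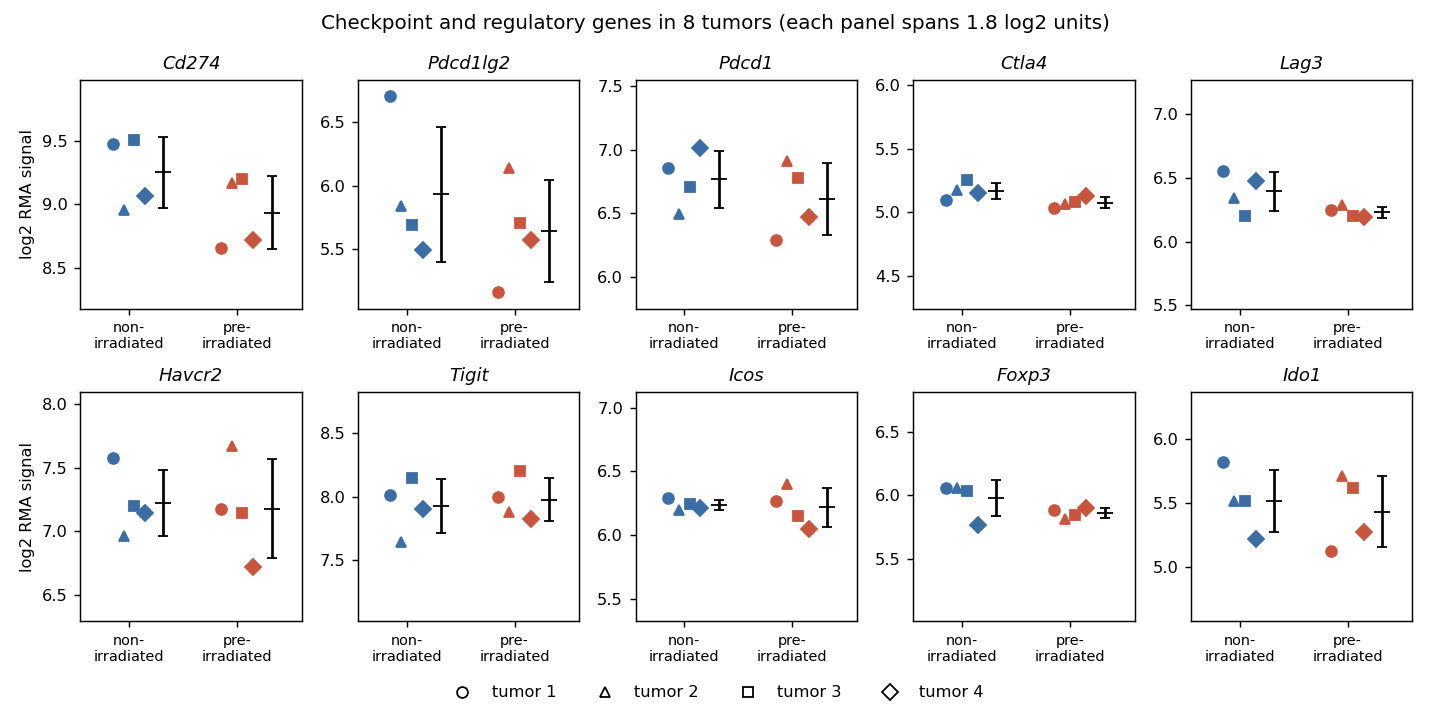
Log2 RMA signal (y axis) of the 10 genes in each tumor, with nonirradiated tumors in blue and preirradiated tumors in red, the symbol shape giving the tumor number, and the black bar the mean ± SD of each group (n = 4). Every panel spans the same number of log2 units, so the wide spread of Pdcd1lg2, from 5.16 to 6.70, can be set beside the narrow spread of Ctla4, from 5.03 to 5.25, and the groups overlap in all 10 panels.

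The 10 genes differed widely in how much they varied between tumors. Pdcd1lg2 spanned 1.54 log2 units over the 8 tumors and had a larger SD than 99.0% of all single-symbol genes, and Cd274 (SD 0.31), Havcr2 (0.31), Pdcd1 (0.25) and Ido1 (0.25) were also among the most variable, above 95.8% to 97.6% of genes. Ctla4 spanned 0.22 units and its SD exceeded that of 37.0% of genes. As a measure of background, the means of 1027 olfactory receptor genes, which a tumor hardly transcribes, had a median of 4.72 and a 95th percentile of 5.47. Ctla4, with a mean of 5.12, stood above 86.3% of them and Ido1, at 5.47, above 95%, so Ctla4 lay within the background range and Ido1 at its upper edge. The other 8 genes stood above at least 97.6%.

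Cd274 encodes PD-L1, the ligand through which tumor and myeloid cells engage PD-1, and had the largest difference of the 10. It read 9.48, 8.96, 9.51 and 9.07 in nonirradiated tumors 1 to 4 and 8.66, 9.17, 9.20 and 8.72 in preirradiated tumors 1 to 4. Preirradiated tumors 1 and 4 lay below all nonirradiated tumors, while preirradiated tumors 2 and 3 lay between the lower and the higher nonirradiated pair. The means were 9.25 ± 0.28 and 8.93 ± 0.29 (SD, n = 4 each), a log2 difference of -0.32 (SE 0.17, 95% interval -0.72 to 0.079), or 0.802-fold (limma adjusted p = 0.883, exact two-sided permutation p = 0.171). The interval reaches from a fall to 0.609-fold to a rise to 1.06-fold. Cd274 was lower in all 18 alternative fits, with differences of -0.42 to -0.23 when 1 tumor was left out. Without nonirradiated tumor 2 the difference was -0.42 and met the submitters' unadjusted criteria, with a limma adjusted p of 0.893.

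Pdcd1lg2 encodes PD-L2, the other PD-1 ligand, found mainly on dendritic cells and macrophages, and its gene lies next to Cd274 on chromosome 19 in the RefSeq annotation. It read 6.70, 5.84, 5.69 and 5.49 in nonirradiated tumors and 5.16, 6.14, 5.70 and 5.57 in preirradiated tumors. Nonirradiated tumor 1 was the highest and preirradiated tumor 1 the lowest of all, and the other 6 tumors were interleaved. The means were 5.93 ± 0.53 and 5.64 ± 0.40, a log2 difference of -0.29 (SE 0.29, 95% interval -0.94 to 0.37, limma adjusted p = 0.962, exact permutation p = 0.457). Without nonirradiated tumor 1 the difference was -0.030, and without preirradiated tumors 1 and 3 it was -0.077.

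The sequences before the annotated starts of these neighbouring genes are shown because both ligands are known interferon targets, whose relations to interferon pathway genes across the tumors are given further on. They are RefSeq sequences of build GRCm38.p6, plus strand, at chr19:29367188-29367437 for Cd274 and chr19:29410669-29410918 for Pdcd1lg2, the 250 bases that end just before the annotated start. Capitals mark matches to AANNGAAA, the half-site of interferon regulatory factors, here read on the opposite strand as TTTCNNTT.
Cd274: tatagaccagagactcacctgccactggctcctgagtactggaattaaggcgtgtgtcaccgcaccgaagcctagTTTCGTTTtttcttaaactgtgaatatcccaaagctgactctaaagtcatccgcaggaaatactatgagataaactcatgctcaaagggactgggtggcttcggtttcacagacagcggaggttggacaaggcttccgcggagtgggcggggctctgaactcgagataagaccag
Pdcd1lg2: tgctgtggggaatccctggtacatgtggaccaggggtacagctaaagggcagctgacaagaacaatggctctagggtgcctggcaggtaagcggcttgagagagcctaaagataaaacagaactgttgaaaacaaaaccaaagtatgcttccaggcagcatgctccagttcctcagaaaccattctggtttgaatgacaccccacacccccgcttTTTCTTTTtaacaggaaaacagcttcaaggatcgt
The promoter table held 8 such windows for 7 of the 10 genes. It held none for Lag3, Icos and Ido1, so these were not searched. The half-site was searched on both strands and matched 4 of these windows, 1 each of Cd274, Pdcd1lg2, Pdcd1 and Foxp3, and 21.3% of all 32851 windows. The full interferon-stimulated response element (GAAA, any 2 bases, GAAA, on either strand), which holds the half-site within it, matched 0 of the 8 windows and 2.98% of all. The gamma-activated site TTCNNNGAA matched 1, a Foxp3 window, and 7.02% of all. A match is a description of these letters, and no factor binding was measured.

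Pdcd1 encodes PD-1 itself, the receptor of both ligands on activated T cells. It read 6.86, 6.49, 6.70 and 7.01 in nonirradiated tumors and 6.29, 6.91, 6.77 and 6.47 in preirradiated tumors. Preirradiated tumors 1 and 4, the same ones that were low in Cd274, lay below all nonirradiated tumors, and the other preirradiated tumors lay among them. The means were 6.77 ± 0.22 and 6.61 ± 0.28, a difference of -0.16 (SE 0.16, 95% interval -0.52 to 0.20, limma adjusted p = 0.962, exact permutation p = 0.40). Without preirradiated tumor 1 it was -0.049, and without nonirradiated tumor 4, the highest, it was -0.075.

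Ctla4 encodes a receptor that competes with CD28 for CD80 and CD86. It read 5.10, 5.17, 5.25 and 5.15 in nonirradiated tumors and 5.03, 5.07, 5.08 and 5.13 in preirradiated tumors. Preirradiated tumors 1, 2 and 3 lay below all nonirradiated tumors, and preirradiated tumor 4 lay just above nonirradiated tumor 1. The means were 5.17 ± 0.064 and 5.08 ± 0.041, a difference of -0.093 (SE 0.043, 95% interval -0.19 to 0.0069, limma adjusted p = 0.862, exact permutation p = 0.0571). Since Ctla4 lay within the background range, its measured difference may understate a change or may not reflect Ctla4 RNA, and neither was tested. Only nonirradiated tumor 1 and preirradiated tumor 4 made the groups overlap, so leaving out either necessarily separated them (limma adjusted p = 0.907 and 0.653).

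Icos encodes a costimulatory receptor of the CD28 family that regulatory T cells carry, and its gene follows Ctla4 on chromosome 1. It read 6.29, 6.20, 6.24 and 6.21 in nonirradiated tumors and 6.27, 6.40, 6.15 and 6.05 in preirradiated tumors. The preirradiated tumors held both the highest value, tumor 2, and the lowest, tumor 4. The difference was -0.0185 (SE 0.074, 95% interval -0.19 to 0.15, limma adjusted p = 0.993), and it was above 0 without preirradiated tumor 3 or 4.

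Lag3 encodes an inhibitory receptor that binds MHC class II, and its gene lies next to Cd4. It read 6.56, 6.34, 6.20 and 6.48 in nonirradiated tumors and 6.25, 6.28, 6.20 and 6.19 in preirradiated tumors. The preirradiated tumors were close together, and nonirradiated tumor 3 lay within their range while the other nonirradiated tumors lay above it. The means were 6.39 ± 0.16 and 6.23 ± 0.044, a difference of -0.16 (SE 0.075, 95% interval -0.33 to 0.009), the smallest limma adjusted p of the 10 genes at 0.856 (exact permutation p = 0.0857). Leaving out nonirradiated tumor 3, the only tumor that made the groups overlap, necessarily separated them, and the difference was then -0.23 (limma adjusted p = 0.729).

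Havcr2 encodes TIM-3, found on exhausted T cells and also on macrophages and dendritic cells. It read 7.58, 6.97, 7.20 and 7.15 in nonirradiated tumors and 7.18, 7.67, 7.14 and 6.72 in preirradiated tumors. The highest and the lowest values were both in preirradiated tumors, 2 and 4. The difference was -0.046 (SE 0.20, 95% interval -0.51 to 0.42, limma adjusted p = 0.995, exact permutation p = 0.886), and it was above 0 without nonirradiated tumor 1 or preirradiated tumor 4.

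Tigit encodes an inhibitory receptor of T and NK cells that binds the poliovirus receptor CD155. It read 8.01, 7.64, 8.15 and 7.90 in nonirradiated tumors and 8.0, 7.88, 8.20 and 7.83 in preirradiated tumors. The preirradiated values fell among the nonirradiated ones, apart from preirradiated tumor 3, which was the highest of all. Tigit was the gene of the 10 whose mean was higher in preirradiated tumors, by 0.052 (SE 0.12, 95% interval -0.22 to 0.33, limma adjusted p = 0.989, exact permutation p = 0.743). This direction turned without nonirradiated tumor 2 or preirradiated tumor 3.

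Foxp3 encodes the transcription factor that defines regulatory T cells. It read 6.06, 6.05, 6.03 and 5.76 in nonirradiated tumors and 5.88, 5.81, 5.84 and 5.90 in preirradiated tumors. Nonirradiated tumors 1 to 3 lay above all preirradiated tumors, and nonirradiated tumor 4 lay below all of them. The means were 5.98 ± 0.14 and 5.86 ± 0.038, a difference of -0.12 (SE 0.069, 95% interval -0.28 to 0.041, limma adjusted p = 0.892, exact permutation p = 0.143). Leaving out nonirradiated tumor 4, the only tumor that made the groups overlap, necessarily separated them, and the difference was then -0.19 (limma adjusted p = 0.916). Nonirradiated tumor 4 was also the tumor with the highest mean of 11 B cell and lymph node genes, 6.31 against 5.60 to 5.70 in the other 7 tumors. Glycam1, a mucin made by lymph node high endothelium and by mammary epithelium, read 8.33 there and 4.71 to 4.91 elsewhere. The part of this in the Foxp3 value was not tested.

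Ido1 encodes indoleamine 2,3-dioxygenase, which starves T cells of tryptophan. It read 5.82, 5.52, 5.51 and 5.22 in nonirradiated tumors and 5.13, 5.71, 5.62 and 5.27 in preirradiated tumors. Preirradiated tumor 1 was the lowest of all, and the other 3 fell among the nonirradiated values. The difference was -0.084 (SE 0.16, 95% interval -0.45 to 0.29, limma adjusted p = 0.983, exact permutation p = 0.686), and it was above 0 without nonirradiated tumor 1 or preirradiated tumor 1.

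**Figure D2:**
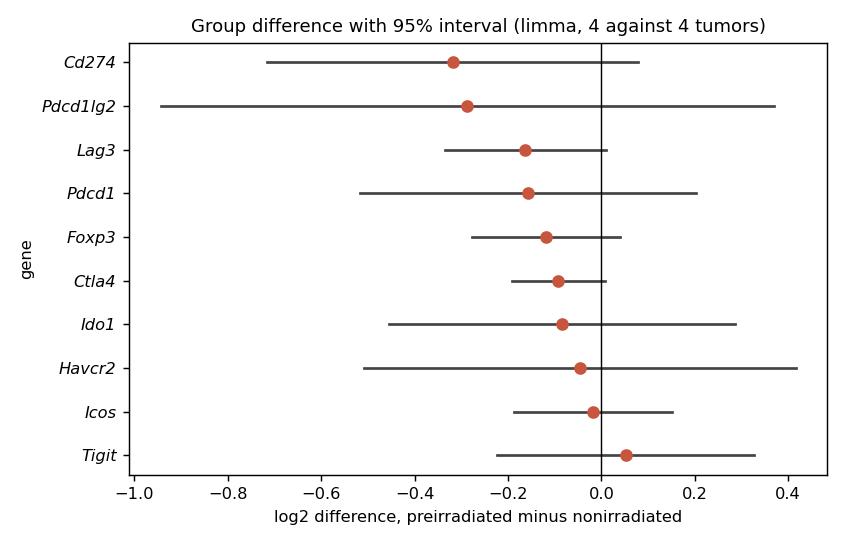
Log2 difference between group means, preirradiated minus nonirradiated (x axis), for each of the 10 genes (y axis), with the point at the limma estimate and the line its 95% interval from 4 against 4 tumors. All 10 intervals include 0, from the narrow one of Ctla4 (-0.19 to 0.0069) to the wide one of Pdcd1lg2 (-0.94 to 0.37).

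The genes were also compared with one another across tumors. Among the 45 pairs of genes, 35 had a Pearson r above 0 over the 8 tumors, with a median r of 0.375. The interferon targets Pdcd1lg2 and Ido1 varied closely together (r = 0.90, permutation p = 0.000372, adjusted over 45 pairs 0.0167; rho = 0.976, adjusted p = 0.0179), and r was 0.856 without nonirradiated and preirradiated tumors 1, which lay farthest out in Pdcd1lg2. Both were high in nonirradiated tumor 1 and preirradiated tumor 2 and low in preirradiated tumor 1. Havcr2 and Icos had a like r, which did not pass after adjustment, and a rank correlation that did (r = 0.909, exact permutation p = 0.00288, adjusted p = 0.0647; rho = 0.952, adjusted p = 0.0257), with r at 0.664 without preirradiated tumors 2 and 4, so part of it rests on those tumors. Cd274 and Ido1 had an r of 0.757 (exact permutation p = 0.0333, adjusted p = 0.499), and Cd274 and Pdcd1lg2, the neighbouring ligand genes, one of 0.674 (exact permutation p = 0.0597, adjusted p = 0.559). Foxp3 and Ctla4 had an r of 0.465 (exact permutation p = 0.247, adjusted p = 0.678), and Foxp3 and Icos one of -0.016. Both figures rest on narrow ranges, near the background in the case of Ctla4.

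**Figure D3:**
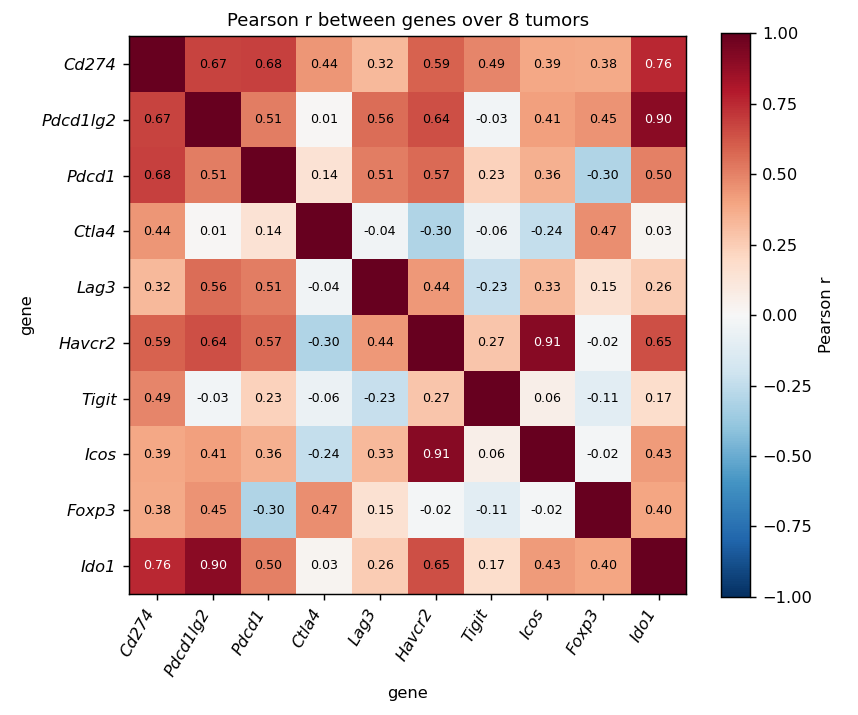
Pearson r over the 8 tumors for each pair of the 10 genes (both axes list the genes), from blue (-1) through white (0) to red (1), with r printed in each cell. Pdcd1lg2 with Ido1 (0.90) and Havcr2 with Icos (0.91) are the darkest cells off the diagonal, and the columns of Ctla4, Tigit and Foxp3 are pale.

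The members were also set against gene lists they do not belong to, a T cell list and an interferon-gamma pathway list, in 20 relations with p-values adjusted over all 20. The mean of 14 T cell genes read 6.38, 6.18, 6.20 and 6.32 in nonirradiated tumors and 5.86, 6.26, 6.28 and 6.01 in preirradiated tumors, so preirradiated tumors 1 and 4 were the lowest. Pdcd1 followed this mean (r = 0.901, exact permutation p = 0.00122, adjusted p = 0.0243; rho = 0.881, adjusted p = 0.103), with r between 0.826 and 0.943 when 1 tumor was left out and 0.738 without preirradiated tumors 1 and 4, and 0.902 for deviations from the group means. Cd274 had an r of 0.802 with it (exact permutation p = 0.0162, adjusted p = 0.0649), which was 0.312 without preirradiated tumors 1 and 4 and so rests on them. Ido1 had an r of 0.716 with the T cell mean (exact permutation p = 0.0438, adjusted p = 0.146), and 0.233 without those tumors. For Pdcd1lg2 r was 0.709 (exact permutation p = 0.0541, adjusted p = 0.155), and 0.512 without them. Lag3 (r = 0.578) and Havcr2 (0.51) did not pass either (exact permutation adjusted p = 0.267 and 0.367). Foxp3 (r = 0.059), Tigit (0.166), Ctla4 (0.257) and Icos (0.262) had low correlations with the T cell mean that did not pass (exact permutation adjusted p at least 0.665 for each), and that of Foxp3 ranged from -0.217 to 0.283 when 1 tumor was left out.

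The mean of 18 interferon-gamma pathway genes read 9.85, 9.62, 9.64 and 9.41 in nonirradiated tumors and 9.0, 9.64, 9.46 and 9.41 in preirradiated tumors, with nonirradiated tumor 1 highest and preirradiated tumor 1 lowest. Pdcd1lg2 followed it (r = 0.885, exact permutation p = 0.0063, adjusted p = 0.042; rho = 0.833, adjusted p = 0.103), with r at 0.756 without those 2 tumors. Ido1 did so as well (r = 0.857, exact permutation p = 0.00332, adjusted p = 0.0332; rho = 0.81, adjusted p = 0.109), with r at 0.714 without them and 0.915 for deviations from the group means. Cd274 had an r of 0.795 (exact permutation p = 0.014, adjusted p = 0.0649; rho = 0.857, adjusted p = 0.103), with r at 0.557 without them. Deviations from the group means gave an r of 0.888 for Pdcd1lg2 and 0.711 for Cd274. None of the 20 rank correlations passed after adjustment. Each array holds RNA of all cells of a tumor, so genes that vary together need not be expressed in the same cells.

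**Figure D4:**
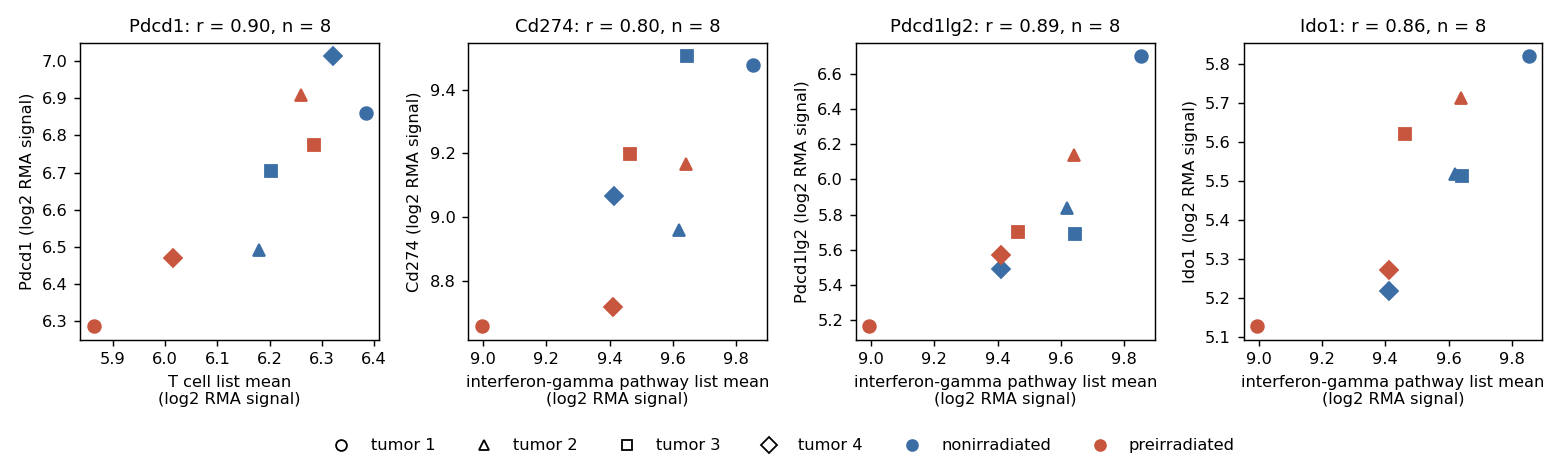
Log2 RMA signal of Pdcd1 against the mean of the T cell list, and of Cd274, Pdcd1lg2 and Ido1 against the mean of the interferon-gamma pathway list (x axes, log2 RMA signal), 1 point per tumor, colour giving the group and symbol the tumor number. Preirradiated tumor 1 is the lowest point in all 4 panels, and nonirradiated and preirradiated tumors are interleaved along each relation.

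Because the T cell mean was also lower in preirradiated tumors, with a difference of -0.17, the members were compared relative to the T cell mean of the same tumor. On this scale Cd274 and Pdcd1lg2 had a lower mean in preirradiated tumors, as did 3.96% of all probe sets. The other 8 of the 10 genes had a higher mean, as did nearly all probe sets. The relative differences ran from -0.15 for Cd274 and -0.12 for Pdcd1lg2, through 0.0034 for Lag3, 0.0089 for Pdcd1 and 0.047 for Foxp3, to 0.15 for Icos and 0.22 for Tigit. None passed with limma (adjusted p from 0.572 to 0.987), where 1.21% of all probe sets did, or in the exact permutation test (p from 0.229 for Tigit to 0.971 for Pdcd1). Subtracting 1 shared mean makes all features move against the T cell genes together. In this fit limma estimated 1 common variance, so every probe set had the same standard error, 0.16 log2 units. The spread of each single probe set was thus not used. Widely varying probe sets can pass for that reason, so the 1.21% is not a sound background for the 10 genes. Against Cd3e alone, which itself differed by -0.54, Cd274 and Pdcd1lg2 were higher by 0.22 and 0.25.

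Counts for other genes of the checkpoint pathways are to be read against all single-symbol genes, of which 52.6% were lower, and against all probe sets, of which 2.97% were lower at an unadjusted p under 0.05 and 3.36% had groups that did not overlap. With limma, 0 genes of any list passed the adjusted threshold. Of 20 other coinhibitory receptors and ligands, 15 were lower (median difference -0.061), 2 of them at an unadjusted p under 0.05. Vsir, the inhibitory receptor VISTA of myeloid and T cells, was 10.65 ± 0.059 against 10.87 ± 0.10, and Cd244a, a receptor of NK and T cells, was 5.60 ± 0.053 against 5.71 ± 0.040, both with groups that did not overlap (limma adjusted p = 0.679 and 0.815). Fgl2, a secreted ligand linked to regulatory T cells, differed by -0.42 (SE 0.21), and Tnfrsf14, the receptor HVEM that binds BTLA, by -0.24 (SE 0.14). Of 16 costimulatory receptors and ligands, 9 of them above the 95th percentile of olfactory receptor genes, 14 were lower (median -0.049), 1 at an unadjusted p under 0.05. This was Tnfsf9, the 4-1BB ligand, at 7.47 ± 0.10 against 7.73 ± 0.13, again without overlap (limma adjusted p = 0.763). Its receptor Tnfrsf9 differed by -0.13 (SE 0.19), and Cd2, an adhesion receptor of T cells, by -0.090 (SE 0.057).

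Of 17 other regulatory T cell genes, 12 were lower (median -0.047). Il2ra, the interleukin-2 receptor chain CD25 that regulatory T cells carry, was 6.35 ± 0.092 against 6.65 ± 0.25, a difference of -0.30 (SE 0.12, limma adjusted p = 0.84), and was the 1 gene of the list at an unadjusted p under 0.05. Il2rb, the receptor chain shared with NK cells, differed by -0.53 (SE 0.30), and the cytokine Tgfb1 by -0.086 (SE 0.040). Of 14 transcription factors of T cell activation and dysfunction, 9 were lower (median -0.016), 2 of them at an unadjusted p under 0.05. These were Id2, an inhibitor of helix-loop-helix factors, at -0.22 (SE 0.063) and with no overlap of the groups, and Maf at -0.26 (SE 0.11) (limma adjusted p = 0.755 and 0.847). Both are also abundant in cells other than T cells.

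All 18 measured interferon-gamma pathway genes were lower (median -0.18), 1 at an unadjusted p under 0.05, Gbp5, which also met the submitters' criteria. The interferon-induced GTPases Gbp5 and Gbp3 differed by -0.58 (SE 0.23) and -0.59 (SE 0.27), and the chemokine Cxcl10 by -0.59 (SE 0.28), with limma adjusted p of at least 0.828 in all 3. Of 9 enzymes of the tryptophan and arginine routes, 3 were lower and 6 higher (median 0.031), with 0 at an unadjusted p under 0.05. The adenosine receptors Adora2a and Adora2b and the enzyme Il4i1 of this list had no probe set of their own and were not analysed here. Arg1, which depletes arginine, differed by -0.22 (SE 0.11), Nos2, the inducible nitric oxide synthase, by 0.17 (SE 0.32), and Ido2, the neighbour and paralog of Ido1, by 0.12 (SE 0.055).

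The means of cell type genes differed beside these results. The labelled carcinoma epithelium was present, with all 11 of its markers above the 95th percentile of olfactory receptor genes and 10 of 11 higher in preirradiated tumors (median 0.21), 3 of them at an unadjusted p under 0.05, against 2.84% of all probe sets. Krt7, a keratin of simple epithelium, and the basal keratin Krt14 differed by 0.39 (SE 0.081) and 0.87 (SE 0.29). T cell genes were lower in 11 of 14 cases (median -0.093), with 11 of 14 above that percentile. Of these genes, 1 was lower at an unadjusted p under 0.05, against 2.97% of all probe sets. Cd4 differed by -0.22 (SE 0.071), and Cd3e and Cd3g, chains of the T cell receptor complex, by -0.54 (SE 0.28) and -0.62 (SE 0.36). NK cell genes were lower in 9 of 10, 1 of them at an unadjusted p under 0.05, with 5 of 10 above that percentile and list means of 5.78 to 6.26 in nonirradiated and 5.54 to 5.91 in preirradiated tumors. The cytotoxic granule genes Prf1 and Gzmb differed by -0.82 and -0.76 (limma adjusted p of at least 0.773), and the NK receptor gene Ncr1, at 5.04 and 4.94, lay within the background range. Macrophage genes were lower in all 10, each above that percentile (10.36 to 10.61 against 10.29 to 10.40). At an unadjusted p under 0.05, 4 of 10 were lower, against 2.97% of all probe sets: C1qc (-0.18), Cd68 (-0.17), C1qa (-0.24) and Cd14 (-0.21). Dendritic cell genes were lower in 10 of 11, with 0 at that limit and 10 of 11 above the percentile (6.75 to 6.80 against 6.67 to 6.75), with Clec9a at -0.29 and Siglech at -0.15. B cell and lymph node genes were lower in 10 of 11, with 5 of 11 above the percentile and 1 at an unadjusted p under 0.05, the B cell scaffold gene Bank1 at -0.41 (SE 0.13). Fcrla, also of this list, lay within the background range at 5.27 and 5.18. Its groups did not overlap, nor did those of Krt7, Cd4 and Cd68, against 3.36% of all probe sets. Neutrophil genes were lower in 7 of 10, all above the percentile. The granule gene Ngp differed by -0.54 (SE 0.22), the 1 gene of that list at an unadjusted p under 0.05, and the protease gene Mmp9 by 0.36 (SE 0.16). Krt14, Prf1, Bank1 and Ngp met the submitters' criteria, against 0.642% of all probe sets.

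Skeletal muscle genes were higher in all 11, with 0 at an unadjusted p under 0.05, and had means of 8.89 and 10.26 in preirradiated tumors 1 and 3 and of 6.03 to 6.33 in the other 6 tumors, and adipocyte genes had a mean of 8.16 in preirradiated tumor 1 and at most 6.94 elsewhere, with 6 of 7 higher and 0 at that limit. The muscle genes Myl1, Atp2a1 and Tnni2 differed by 2.77 (SE 1.38), 2.72 (SE 1.38) and 1.12 (SE 0.49). The adipocyte genes Retn, Cidec and Fabp4 differed by 0.89 (SE 0.64), 0.62 (SE 0.49) and 0.53 (SE 0.35), and Lep lay within the background range at 4.91 and 5.02. Fibroblast and matrix genes were higher in 9 of 10, with means of 9.55 to 9.89 against 9.25 to 9.43. Of these 10 genes, 5 were higher at an unadjusted p under 0.05, 3 met the submitters' criteria and 4 had groups that did not overlap. Over all probe sets, 2.84% were higher at that p, 0.489% were higher by the criteria and 3.36% had no overlap. The collagen genes Col1a2, Col1a1 and Col3a1 differed by 0.54 (SE 0.094), 0.49 (SE 0.090) and 0.61 (SE 0.13), with limma adjusted p of at least 0.595. Preirradiated tumor 1 had the highest adipocyte and fibroblast means together with the lowest Cd274, Pdcd1lg2, Pdcd1, Ctla4 and Ido1 values. It was not the lowest in Lag3, Havcr2, Tigit, Icos or Foxp3. Preirradiated tumor 3, with the highest muscle mean, had the highest preirradiated Cd274 value (9.20) and the highest Tigit value of all (8.20). Preirradiated tumor 4, with muscle and adipocyte means of 6.23 and 6.74, had a Cd274 value of 8.72, also below all nonirradiated tumors. Without preirradiated tumors 1 and 3, Cd274 differed by -0.31, Pdcd1 by -0.077, Lag3 by -0.16 and Foxp3 by -0.12, and Tigit by -0.073. The part of these cell type genes in the differences was not tested beyond that.

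By Pearson r over the 8 tumors against 16552 single-symbol genes with a mean of at least 5.0, the most similar patterns were as follows, given as descriptions without a test. Cd274 was closest to Tnfrsf18 (r = 0.953), which encodes the T cell receptor GITR, then Samhd1 (0.946) and Xdh (0.943). Pdcd1lg2 was closest to the MHC class I gene H2-K2 (0.991), then Klrk1 (0.981), which encodes the NK and T cell receptor NKG2D, and Commd8 (0.978). Ido1 was closest to Gm12185 (0.983), then the transcription factor Batf2 (0.957) and Kti12 (0.955). For Pdcd1 the nearest were Ints11 (0.924), Anapc10 (0.92) and Sspn (0.919), the lowest top value among the 10 genes. Lag3 was nearest to Gdi2 (0.985), Abhd12 and Eif3e (0.956 each), and Ctla4 to R3hdml (0.968), Nelfb (0.961) and Grin2b (0.955). For Havcr2 they were Rfesd, Atg4c (0.982 each) and Vps13a (0.979), and for Icos Casp2 (0.986), Rab11fip2 and Dcaf1 (0.975 each). Tigit was nearest to the mitochondrial channel Vdac1 (0.967), the transferrin receptor Tfrc (0.948) and Lilrb4a (0.943), and Foxp3 to Tedc2 (0.956), Nudt5 (0.94) and Aqp9 (0.938). With 8 tumors and this many genes the highest r is high for every one of the 10 genes, so the order of these genes is a description only.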

How the data were processed

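The authors deposited log2 values, 1 per probe set and array, which they had normalized by RMA, per the series' design text. RMA gives the arrays like distributions, so a change in total RNA per tumor is not visible. The processing notes of the submitters name affy and R 2.15.3. The genome build and chip description file are not given in the sources used here. Of 34760 probe sets, 34738 had a mean of at least 4.0 and were tested; 21640 listed 1 gene symbol, 1321 several and 11799 none, in the platform annotation given with the data.

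From these values, preirradiated minus nonirradiated was fitted to all 34738 probe sets with limma 3.58.1 in R 4.3.3 (lmFit, eBayes, two-sided, Benjamini-Hochberg over all). Exact permutation tests used all 70 assignments of 4 and 4 tumors, where the smallest two-sided p is 0.0286, or all pairings for correlations (Python 3.11.15). The members and gene lists were chosen with earlier results of these data known. The 10 members were named in full, and of each other list up to 4 genes: the 2 leading by p and the 2 leading by size of difference, plus the 3 most similar genes per member. Of 213 list entries, 14 had no probe set of their own and were not analysed here. The replicate numbers of the titles were not treated as pairs in the main fit. Deviations from group means of same-numbered tumors correlated at -0.29 to -0.075. Values for differently numbered tumors are not given here, so this does not settle whether the numbers pair the tumors. No pair of arrays held equal values beyond 21 probe sets. The pipeline was tested on simulated data. Alternatives covered the expression limit, variance model, scaling, array weights, the replicate block, 1 probe set per gene and leaving out tumors.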

Additional observations from a re-analysis of the deposited data

Results flagged for a closer look

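Foxp3 in nonirradiated tumor 4, at 5.76, stood apart from the other nonirradiated tumors at 6.03 to 6.06, with a gap of 0.905 of the whole range of the group. It was the 1 case among 20 groups of 4 tumors examined for an outlying value (10 genes in each of 2 groups), and chance alone flags about 1 in 20. The same tumor had the highest Pdcd1 value of all (7.01) and the second highest T cell mean (6.32), so the low Foxp3 value did not go with low values of these.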

How the results depend on the processing

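Cd274, Pdcd1lg2, Pdcd1, Ctla4, Lag3 and Foxp3 were lower in preirradiated tumors in all 18 alternative fits, and 0 of 180 gene fits passed the limma adjusted threshold (smallest adjusted p = 0.555). Leaving out 1 tumor gave differences of -0.21 to 0.11 for Havcr2, -0.043 to 0.13 for Tigit, -0.080 to 0.038 for Icos and -0.18 to 0.018 for Ido1, and Tigit was -0.073 without preirradiated tumors 1 and 3. The number of genes lower was 7 to 10 without 1 tumor. At an unadjusted p under 0.05, 1 gene was lower with array weights (Ctla4), 2 with quantile normalization (Ctla4, Lag3) and 3 with each array centred on its median (these and Foxp3), and 0 to 1 without 1 tumor; centring lowered the median of all probe sets to -0.035. The groups did not overlap for 1 gene (Ctla4) with either scaling and for 0 to 1 without 1 tumor, when also 0 to 1 met the submitters' criteria (Cd274 without nonirradiated tumor 2). Shares over all probe sets in these alternative fits are not given here, so these counts have no background to be read against. With 1 tumor fewer, groups also separate more readily by chance. Relative to T cell genes, leaving out 1 tumor gave -0.28 to 0.099 for Pdcd1lg2, -0.052 to 0.075 for Pdcd1, -0.084 to 0.074 for Lag3, -0.041 to 0.11 for Foxp3 and -0.035 to 0.15 for Ido1. With the median of the T cell genes, Pdcd1 was -0.037 and Lag3 -0.043, and with Cd3e alone Cd274 was 0.22 and Pdcd1lg2 0.25. Without 1 tumor, r with the T cell mean was -0.278 to 0.36 for Ctla4, -0.037 to 0.619 for Icos, -0.217 to 0.283 for Foxp3 and 0.531 to 0.982 for Ido1. With the interferon-gamma mean it was 0.135 to 0.788 for Pdcd1, 0.005 to 0.616 for Ctla4, 0.028 to 0.56 for Lag3, 0.21 to 0.691 for Havcr2 and 0.124 to 0.649 for Icos. The exact test of the relative differences was added after the data had been seen. The cause of these changes was not tested. With the replicate block, Cd274 differed by -0.32 and limma adjusted p was 1.0 for all 10 genes, and no call changed. A second probe set was not run, since each gene had 1. Signals near background limit Ctla4 and Ido1.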
